A study of Arabidopsis thaliana with 18 samples.

Results

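The comparison described here sets ABA-treated seedlings of an Arabidopsis thaliana line with mutations in 12 PYR/PYL receptor genes (the pyl duodecuple) against ABA-treated wild type. Genes were kept where the higher of the 2 genotypes reached 5 FPKM (fragments sequenced, scaled to the length of the transcript and to the size of the library), which held for 4336 of the 6740 genes in the deposited table. Of these, 3201 reached 5 FPKM in both genotypes, 429 reached it in the wild type alone and 706 in the duodecuple alone. The other 2404 genes stayed below it. At the edge of this minimum, AT5G48657, CYCP4;1 and AT1G63860 were just inside, each at 5.01 FPKM in the higher genotype, and AT1G76620, WRKY28 and AT5G60530 were just outside, each at 4.99 FPKM.

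Both genotypes were in the Col-0 ecotype, and whole seedlings were 9 days old when they were moved to filter paper for 24 h. ABA-treated seedlings received 100 µM ABA, osmotically stressed seedlings received 300 mM mannitol, and control seedlings were mock treated. Each of the 6 groups (2 genotypes, 3 treatments) held 3 samples, 18 in all. The table gives 1 authors' value per group, so no value below has a replicate error, the depth of the samples is unknown, and no difference between the genotypes could be tested. The duodecuple is given as 1 line, and its seedlings carried the same mutations in all 3 treatments.

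Abscisic acid (ABA) is the hormone through which plants respond to drought, salt and cold and hold seeds dormant. It binds PYR/PYL receptors, which then block clade A protein phosphatases of type 2C. Freed from these phosphatases, SnRK2 kinases activate bZIP transcription factors that bind the ABA-responsive element in the promoters of their targets.

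The receptor genes themselves came first as a check of the labels. Of the 14 family members, 6 are in the table and 5 of those passed the minimum. PYR1 (AT4G17870) stood at 111 FPKM in ABA-treated wild type and 163 FPKM in the duodecuple, PYL4 (AT2G38310) at 37.0 and 131 FPKM, PYL5 (AT5G05440) at 26.0 and 17.5 FPKM, and PYL8 (AT5G53160) at 97.4 and 72.3 FPKM. PYR1, PYL4, PYL5 and PYL8 were thus still transcribed in the duodecuple, and family members with no value here were not covered. A level per gene does not show whether the transcript carries a lesion, so these values check the genotype only in part. PYL12 (AT5G45870) was listed at 0 in the wild type and at 1.93 FPKM in the duodecuple. PYL6 (AT2G40330), not counted as mutated in the study's title, stood at 0.416 FPKM in ABA-treated wild type and at 56.9 FPKM in the duodecuple, a log2 ratio of 5.35. In control seedlings PYL6 stood at 16.1 and 58.1 FPKM, so the level in the duodecuple was almost the same in both treatments, whereas that of the wild type was lower with ABA. For PYL5 and PYL8 the genotypes were further apart without ABA, at 90.6 against 13.1 FPKM and at 225 against 73.0 FPKM.

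Differences between the genotypes were widespread under ABA. Every ratio is the log2 of (duodecuple FPKM + 1) over (wild-type FPKM + 1), and a fold is the same ratio without the logarithm. Where a pair of levels is given, the wild type comes first and the duodecuple second, both on ABA unless another treatment is named. The duodecuple stood at least 2-fold below the wild type at 885 genes, 20.4% of those kept, and at least 2-fold above it at 895 genes, 20.6%. At 2556 genes the genotypes were less than 2-fold apart. The minimum shaped these counts, since 311 of the lower genes passed it through the wild type alone and 530 of the higher genes through the duodecuple alone. Among the 3201 genes with 5 FPKM in both genotypes, 574 were at least 2-fold lower and 365 at least 2-fold higher. Counts for gene lists below are to be read beside these numbers for all genes. At least 4-fold, the counts were 309 lower (7.13%) and 273 higher (6.30%); at least 16-fold, 59 and 21; and at least 32-fold, 14 and 11. The median log2 ratio over all genes kept was 0.06, with quartiles of -0.77 and 0.80. Because FPKM is scaled to library size, this median does not show whether overall RNA levels differed.

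**Figure D1:**
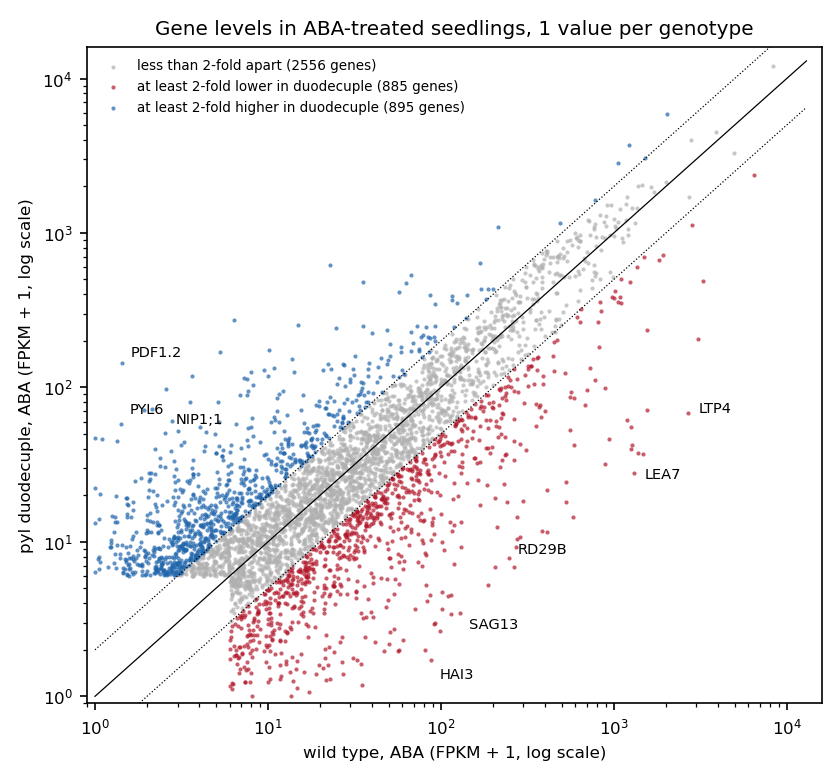
FPKM + 1 of each of the 4336 genes in ABA-treated wild type (horizontal, log scale) and in the ABA-treated pyl duodecuple (vertical, log scale), 1 authors' value per genotype. Red and blue dots are the 885 genes at least 2-fold lower and the 895 at least 2-fold higher in the duodecuple, the solid line marks equal levels and the dotted lines 2-fold; HAI3 lies far below the lines and PDF1.2 far above them.

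Without ABA the same genotypes differed at few genes. In control seedlings 4226 genes passed the minimum, of which 137 (3.24%) were at least 2-fold lower in the duodecuple and 189 (4.47%) at least 2-fold higher. Of the 885 genes lower under ABA, 85 were also at least 2-fold lower in control seedlings, 9.60% of the ABA list and 62.0% of the control list. Of the 895 genes higher under ABA, 118 were also higher in control seedlings, 13.2% of the ABA list and 62.4% of the control list. These comparisons share no group, although every gene in the table was listed for a change between a treatment and its control.

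The levels behind these counts separated the treatments. The 309 genes at least 4-fold lower had a median of 50.1 FPKM in ABA-treated wild type and 4.52 FPKM in the ABA-treated duodecuple. In control seedlings their medians were 5.05 and 2.68 FPKM. Their summed FPKM made up 14.97% of the table's total in ABA-treated wild type and 1.57% in the ABA-treated duodecuple, against 2.13% and 1.09% in control seedlings. The 273 genes at least 4-fold higher mirrored them, with medians of 2.03 FPKM in ABA-treated wild type, 21.1 FPKM in the ABA-treated duodecuple, and 15.9 and 26.6 FPKM in the control seedlings of the wild type and duodecuple. Under mannitol the lower set had medians of 39.5 FPKM (wild type) and 5.97 FPKM (duodecuple), and the higher set of 4.501 and 13.9 FPKM. Mannitol-treated wild type thus lay on the same side as ABA-treated wild type in both sets. The sets were chosen on the ABA values, so those of the other treatments are the ones the choice did not use.

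The clade A PP2C phosphatases, the inhibitors at the head of the pathway, were among the genes lowest in the duodecuple. Of 9 listed phosphatases 7 had values. Of these 7, 6 were at least 2-fold lower and none was higher, where 20.4% and 20.6% of all genes kept were. Their median log2 ratio was -3.08, against -0.51 in control seedlings, and 4 of the 7 passed the minimum through the wild type alone. HAI3 (AT2G29380) stood at 87.0 FPKM in ABA-treated wild type and 0.718 FPKM in the duodecuple, a log2 ratio of -5.68 and the lowest of all genes kept. It was close to silent in control seedlings, at 0.200 and 0.0378 FPKM. HAI1 (AT5G59220) stood at 97.8 against 1.66 FPKM, and HAI2 (AT1G07430) at 33.8 against 0.192 FPKM. The 3 HAI genes thus lay below 2 FPKM in the mutant although ABA was present. The other members were less far apart: PP2CA (AT3G11410) stood at 238 against 36.1 FPKM, ABI1 (AT4G26080) at 131 against 29.3 FPKM, and ABI2 (AT5G57050) at 48.0 against 4.79 FPKM. HAB1 (AT1G72770), at 71.1 against 35.6 FPKM, was just inside 2-fold, with a log2 ratio of -0.98.

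Of 10 listed SnRK2 kinases, which the phosphatases hold inactive, 6 had values, with 3 at least 2-fold lower and 1 higher. SNRK2.6 (AT4G33950), known as OST1 and needed for stomatal closure, stood at 90.5 against 30.2 FPKM. SNRK2.9 (AT2G23030) stood at 24.0 against 5.65 FPKM and SNRK2.7 (AT4G40010) at 9.39 against 1.88 FPKM. SNRK2.3 (AT5G66880), at 42.5 against 35.9 FPKM, and SNRK2.5 (AT5G63650), at 2.27 against 5.31 FPKM, were within 2-fold. SNRK2.8 (AT1G78290), at 8.497 against 18.21 FPKM, sat on the other side, with a log2 ratio of 1.02 that drops under 1 when the ratios are centred on their median. The kinase genes thus differed less, and in both directions, than the phosphatase genes.

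ABA-responsive transcription factors followed the phosphatases, with 10 of 12 kept genes at least 2-fold lower, none higher, and a median of -2.10. Of the 7 with 5 FPKM in both genotypes 5 were lower. NAC019 (AT1G52890) stood at 31.6 against 0.708 FPKM. HB12 (AT3G61890) and HB7 (AT2G46680), homeodomain proteins of the drought response, stood at 130 against 8.22 FPKM and at 239 against 17.2 FPKM. MYB102 (AT4G21440) stood at 20.24 against 0.768 FPKM. Genes that make, break down or release ABA were lower as well, 5 of 6, and 2 of the 3 with 5 FPKM in both genotypes. CYP707A1 (AT4G19230), an ABA hydroxylase that starts its breakdown, stood at 100.5 against 3.75 FPKM, and CYP707A4 (AT3G19270) at 12.5 against 0.447 FPKM. NCED3 (AT3G14440), which catalyses the committed step of ABA synthesis, was low in both, at 5.39 against 0.813 FPKM.

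LEA and dehydration proteins, which protect cells that lose water, differed most as a list. Of 26 listed members 24 had values. All 24 passed the minimum and were at least 2-fold lower, with log2 ratios from -5.55 to -1.57. Their median was -3.22, against -0.75 in control seedlings. Of these, 18 were at or above 5 FPKM in the duodecuple too. The summed level of all 24 was 12438 FPKM in ABA-treated wild type and 1418 FPKM in the ABA-treated duodecuple. LEA7 (AT1G52690) stood at 1305 against 26.9 FPKM and LEA4-5 (AT5G06760) at 263 against 5.92 FPKM. RD29B (AT5G52300), a widely used ABA reporter gene, stood at 247 against 6.83 FPKM, and RD20 (AT2G33380), a caleosin, at 385 against 10.8 FPKM. In control seedlings the wild type held all 4 at low levels, from 1.58 FPKM for LEA4-5 to 11.3 FPKM for RD20. The mutant on ABA was above its own control level for each of them, at 26.9 against 0.216 FPKM for LEA7, so its levels were lower than in the wild type but not at the control level.

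The DNA before 4 of these genes is shown because it holds the ABA-responsive element core ACGTG, and the DNA before PYL6 and PDF1.2, 2 of the genes highest in the duodecuple, is shown beside it. Each line gives the 250 bases before the gene start in RefSeq's annotation of TAIR10.1, written along the gene's strand, with ACGTG (or CACGT, the same core on the other strand) in capitals. The windows are HAI3 (chr2:12608425-12608674, plus strand), LEA7 (chr1:19619474-19619723, plus strand), LEA4-5 (chr5:2090431-2090680, minus strand), RD29B (chr5:21236771-21237020, plus strand), PYL6 (chr2:16846195-16846444, minus strand) and PDF1.2 (chr5:17907639-17907888, minus strand).
HAI3: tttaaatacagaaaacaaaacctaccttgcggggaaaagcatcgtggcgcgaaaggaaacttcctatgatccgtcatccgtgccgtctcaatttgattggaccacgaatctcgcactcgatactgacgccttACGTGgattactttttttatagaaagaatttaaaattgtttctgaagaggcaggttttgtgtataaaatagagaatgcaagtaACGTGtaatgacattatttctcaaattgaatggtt
LEA7: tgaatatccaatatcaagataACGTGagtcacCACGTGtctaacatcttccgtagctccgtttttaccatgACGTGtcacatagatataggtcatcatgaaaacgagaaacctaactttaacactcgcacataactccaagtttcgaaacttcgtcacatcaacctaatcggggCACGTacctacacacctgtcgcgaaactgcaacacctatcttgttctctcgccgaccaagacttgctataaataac
LEA4-5: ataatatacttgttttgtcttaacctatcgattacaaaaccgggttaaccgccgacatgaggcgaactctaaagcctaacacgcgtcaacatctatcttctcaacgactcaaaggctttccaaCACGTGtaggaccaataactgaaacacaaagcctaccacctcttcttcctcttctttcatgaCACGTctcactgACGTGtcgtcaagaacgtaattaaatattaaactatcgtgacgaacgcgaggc
RD29B: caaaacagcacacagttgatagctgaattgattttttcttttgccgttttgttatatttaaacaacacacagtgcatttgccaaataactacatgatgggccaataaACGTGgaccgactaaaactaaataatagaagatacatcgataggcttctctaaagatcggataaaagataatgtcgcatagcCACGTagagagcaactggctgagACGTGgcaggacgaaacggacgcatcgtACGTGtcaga
PYL6: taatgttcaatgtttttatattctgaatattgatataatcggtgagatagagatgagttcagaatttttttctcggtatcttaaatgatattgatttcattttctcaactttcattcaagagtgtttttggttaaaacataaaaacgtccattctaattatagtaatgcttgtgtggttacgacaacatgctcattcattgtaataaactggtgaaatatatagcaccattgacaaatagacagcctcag
PDF1.2: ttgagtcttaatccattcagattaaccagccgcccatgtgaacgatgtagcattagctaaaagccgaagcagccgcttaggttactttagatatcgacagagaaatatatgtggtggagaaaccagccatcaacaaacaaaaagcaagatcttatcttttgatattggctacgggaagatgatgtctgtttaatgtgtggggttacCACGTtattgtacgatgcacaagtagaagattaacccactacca

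The core was found 2 times before HAI3, 5 times before LEA7, 4 times before LEA4-5 and 4 times before RD29B, 1 time before PDF1.2 and not before PYL6, counting both strands, so that a G-box (CACGTG) counts as 2 overlapping matches. It was not found in the windows of HAI1, LTP4 and LTP3, which were also far lower in the duodecuple.

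Over whole sets, the share of windows with the core was largest among the genes lowest in the duodecuple under ABA. ACGTG was in 49.0% of 306 windows of genes at least 4-fold lower, 36.7% of those 2-fold to 4-fold lower, 26.7% of those within 2-fold, 28.9% of those 2-fold to 4-fold higher and 26.6% of those at least 4-fold higher, against 22.9% of 27443 protein-coding genes. At least 2 matches were in 27.8% of windows of the 4-fold lower genes and in 8.84% of all. A single G-box gives 2 overlapping matches, so these shares are not of windows with 2 separate sites. The 85 such windows of the 4-fold lower genes include all 62 with a G-box, and the 2427 over all genes include all 1780. The longer form ACGTGTC was in 16.7% of the 4-fold lower windows, in 0% of the 4-fold higher windows and in 3.68% of all. The G-box CACGTG was in 20.3%, 5.17% and 6.49%. Both of these contain ACGTG, so the 3 shares are not separate. The drought-responsive element core CCGAC was in 19.0%, 10.7% and 11.97%, the RY core CATGCA in 12.1%, 18.8% and 8.43%, and the heat shock element core GAANNTTC in 9.48%, 11.1% and 9.55%. The G and C content of the windows was 32.4% for the 4-fold lower genes, 30.1% for the 4-fold higher genes and 31.5% for all. A match describes the letters of a window and does not show that a factor binds there.

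**Figure D2:**
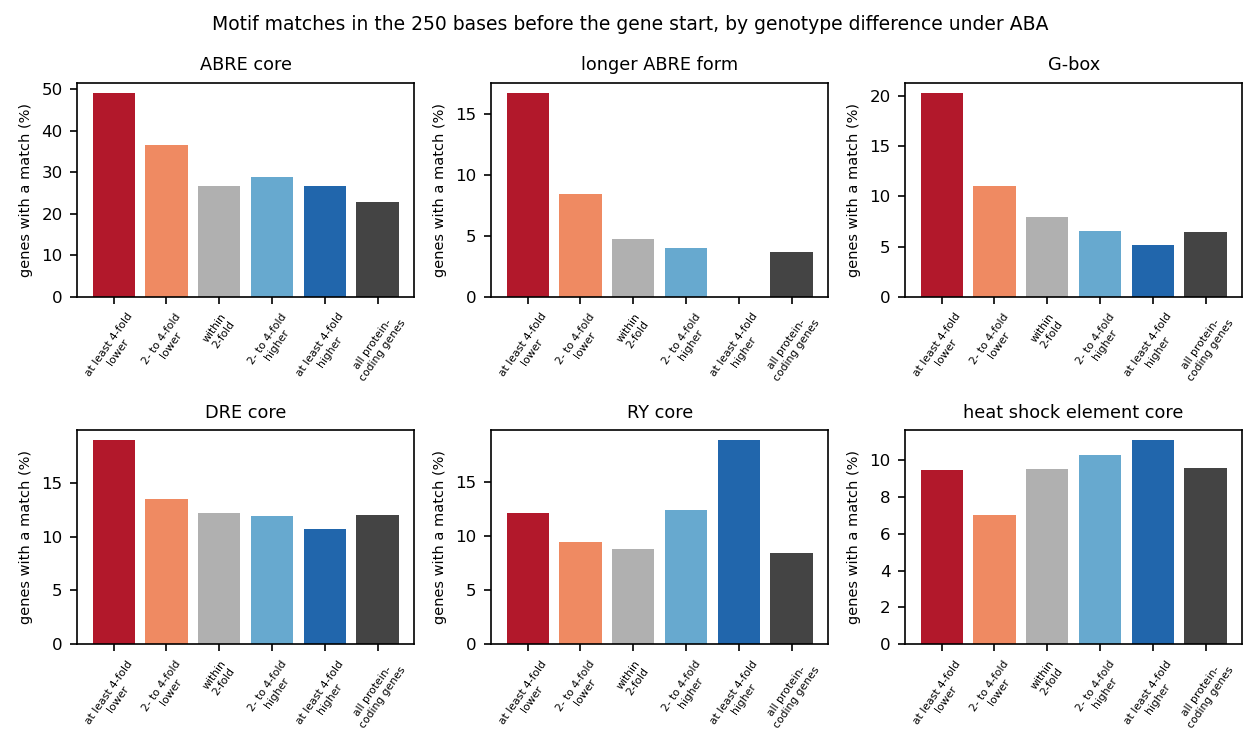
Share of genes (percent, each panel with its own axis from 0) with at least 1 match to each motif in the 250 bases before the gene start, for 5 classes of genotype difference under ABA and for all protein-coding genes. For the ABA-responsive element (ABRE) core the bar of genes at least 4-fold lower is at 49.0% and that of all genes at 22.9%.

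Several of the 10 lowest genes are outside these lists. AT3G02480, annotated as a further LEA family protein, stood at 1477 against 36.1 FPKM. AT2G37870 and AT1G62510, both of the lipid transfer and 2S albumin superfamily, stood at 1376 against 36.5 FPKM and at 578 against 13.6 FPKM. AT5G28520, a mannose-binding lectin, stood at 79.99 against 0.985 FPKM. Each was far lower in control wild type than in ABA-treated wild type, from 1.02 FPKM for AT5G28520 to 34.3 FPKM for AT1G62510.

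Other protective genes were lower in the duodecuple too. Of 13 genes for osmolytes and sugars 9 were at least 2-fold lower and 1 higher, with a median of -2.29, and 6 of the 9 with 5 FPKM in both genotypes were lower. P5CS1 (AT2G39800), the main enzyme of stress-induced proline synthesis, stood at 226 against 32.8 FPKM, and the sucrose synthase SUS3 (AT4G02280) at 76.5 against 9.34 FPKM. GOLS2 (AT1G56600), a galactinol synthase, stood at 10.96 against 0.920 FPKM, and AMY1 (AT4G25000), an amylase, at 19.8 against 0.524 FPKM. These genes did not share 1 pattern under mannitol, where AMY1 and SUS3 had log2 ratios of -4.36 and -2.94, P5CS1 -0.50 and GOLS2 0.31.

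Heat shock proteins were lower at 13 of 16 kept genes and higher at 1, against 20.4% and 20.6% of all genes kept. Their median was -2.46. The small heat shock proteins, chaperones that hold unfolding proteins, led them: HSP17.4 (AT3G46230) stood at 285 against 9.69 FPKM, HSP17.6A (AT5G12030) at 296 against 17.3 FPKM and HSP17.6II (AT5G12020) at 103 against 7.86 FPKM. HSFA6A (AT5G43840), a heat shock factor, stood at 16.3 against 0.0725 FPKM. Under mannitol the list median was -0.62, and HSP17.6II stood at 3.42 against 2.59 FPKM, below the minimum in both genotypes.

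Lipid transfer proteins, which carry lipids through the cell wall, included some of the most abundant transcripts of ABA-treated wild type. Of 13 kept genes for lipid transfer, wax and storage lipid 10 were lower and 1 higher, against 20.4% and 20.6% of all genes kept. Their median was -2.22, against 0.13 in control seedlings. LTP4 (AT5G59310) stood at 2695 against 67.5 FPKM and LTP3 (AT5G59320), its neighbour on chromosome 5, at 1251 against 38.7 FPKM; reads of such similar copies may have been shared. LTP2 (AT2G38530) stood at 590 against 84.3 FPKM. Senescence and dark-inducible genes were lower at 7 of 13 and higher at 1, but of the 7 with 5 FPKM in both genotypes 2 were lower and none higher. SAG13 (AT2G29350) stood at 128 against 2.47 FPKM and SAG29 (AT5G13170), the sugar exporter SWEET15, at 529 against 17.2 FPKM. DIN11 (AT3G49620) went the other way, at 0.519 against 18.16 FPKM. SAG13 and SAG29 also parted under mannitol, where SAG13 stood at 163 against 92.9 FPKM and SAG29 at 540 against 1.49 FPKM.

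**Figure D3:**
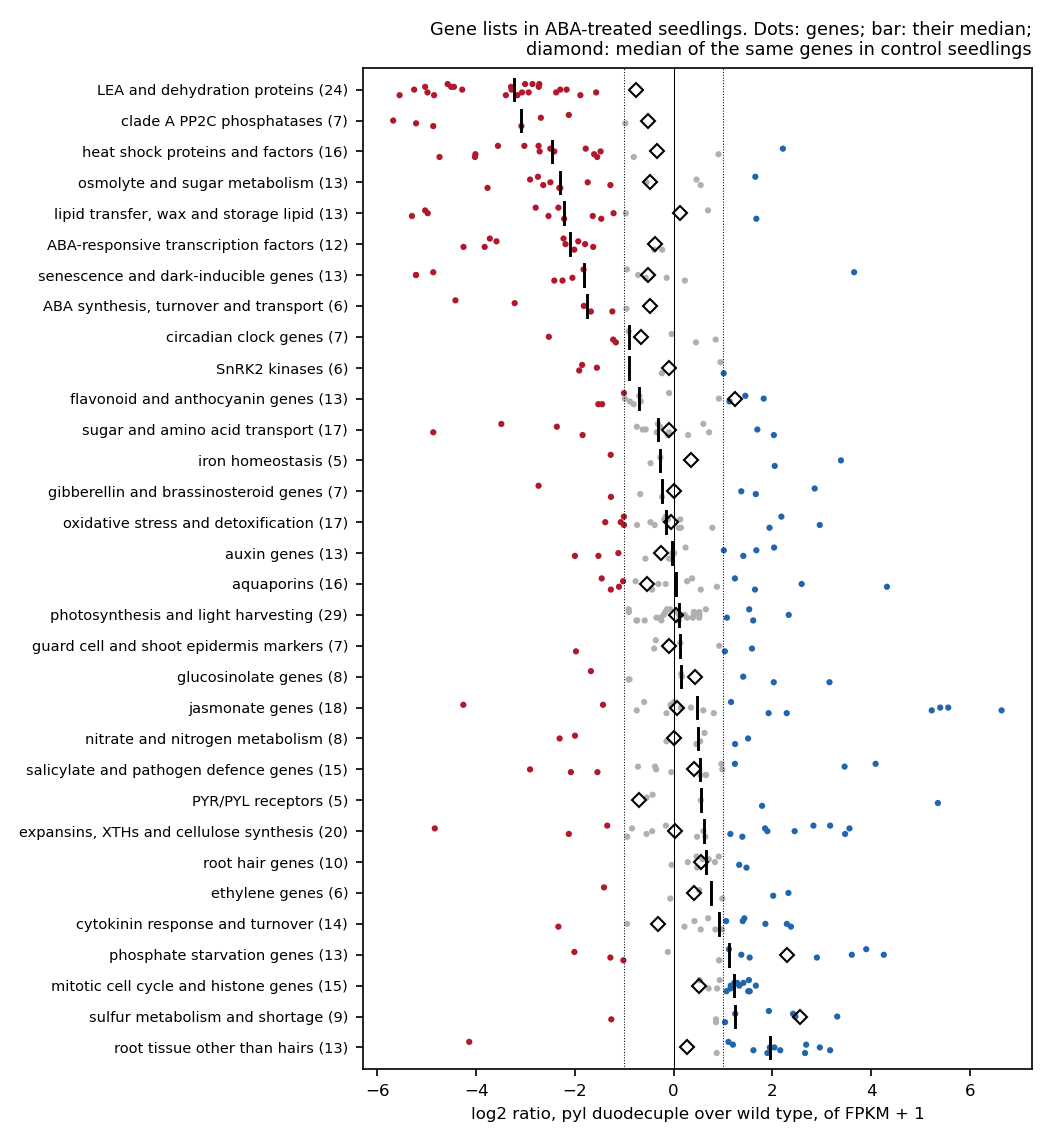
Log2 ratio of the duodecuple over the wild type under ABA (horizontal) for every kept gene (dot) of the gene lists with at least 5 kept genes, the number in brackets. Bars are the list medians under ABA and diamonds the medians of the same genes in control seedlings; dotted lines mark 2-fold, and the LEA list has its bar at -3.22 and its diamond at -0.75.

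Genes higher in the duodecuple were headed by plant defensins, small antifungal peptides induced by jasmonate and ethylene. PDF1.2 (AT5G44420) stood at 0.434 FPKM in ABA-treated wild type and 142 FPKM in the duodecuple. Its log2 ratio of 6.64 was the highest of all genes kept with 1 FPKM added to each level. With wild-type levels this low, the order of the defensins depends on the amount added. PDF1.2c (AT5G44430) stood at 0.0968 against 45.3 FPKM and PDF1.3 (AT2G26010) at 0.912 against 70.7 FPKM. PDF1.2b (AT2G26020) was listed at 0 in the wild type and at 46.3 FPKM in the duodecuple. These copies are close in sequence, and reads may have been shared among them. In control seedlings they were already higher in the duodecuple, at 412 against 91.3 FPKM for PDF1.2, so ABA-treated duodecuple held less PDF1.2 than its own control. Under mannitol the genotypes were further apart than under ABA for all 4 defensins, with log2 ratios from 9.03 for PDF1.2 to 9.31 for PDF1.2b. The jasmonate list as a whole had 7 of 18 kept genes higher, 2 lower and a median of 0.48. Over all genes kept 20.6% were higher and 20.4% lower. Of its 12 genes with 5 FPKM in both genotypes 2 were higher and 1 lower. Among all 3201 genes that reached 5 FPKM in both, 365 were higher and 574 lower. The 4 defensins passed through the duodecuple alone.

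**Figure D4:**
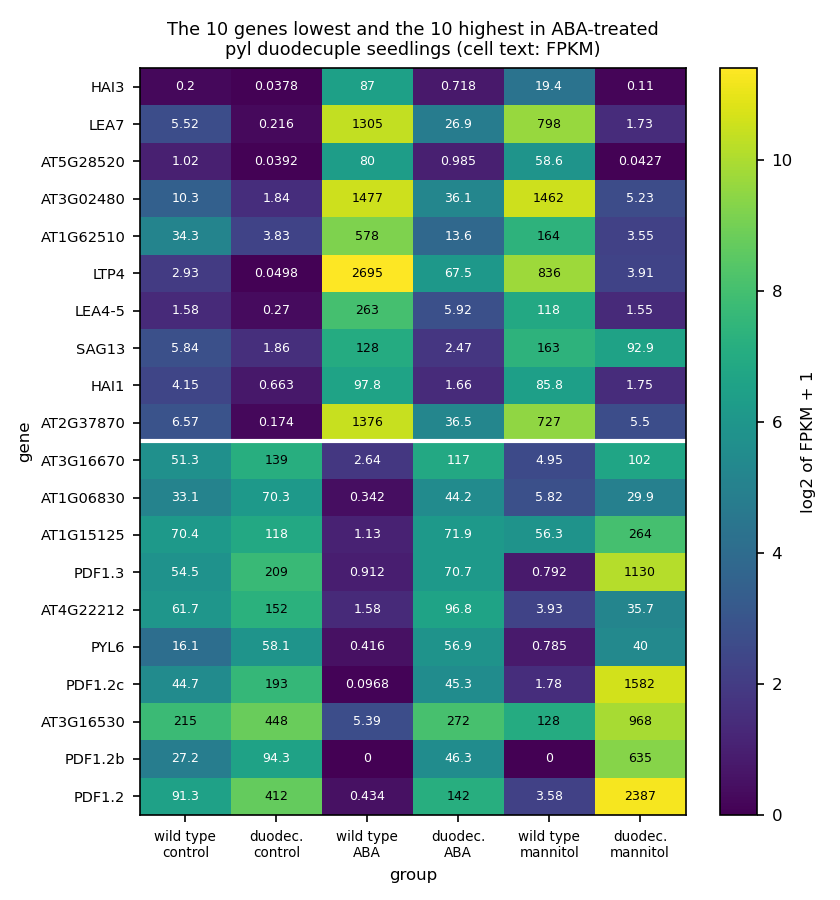
Authors' FPKM value (cell text) and log2 of FPKM + 1 (colour) in the 6 groups for the 10 genes lowest (top) and the 10 highest (bottom) in the ABA-treated duodecuple relative to ABA-treated wild type. LTP4 is at 2695 FPKM in ABA-treated wild type and PDF1.2 at 2387 FPKM in the mannitol-treated duodecuple.

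The rest of the 10 highest genes were of mixed families. AT3G16530, a legume lectin family protein, stood at 5.39 against 272 FPKM and AT4G22212, a defensin-like protein, at 1.58 against 96.8 FPKM. AT1G15125, a methyltransferase, stood at 1.13 against 71.9 FPKM, AT1G06830, a glutaredoxin, at 0.342 against 44.2 FPKM, and AT3G16670, of the pollen Ole e 1 family, at 2.64 against 117 FPKM. In control wild type all 5 were abundant, from 33.1 FPKM for AT1G06830 to 215 FPKM for AT3G16530, and all 5 were lower in ABA-treated wild type. In mannitol-treated wild type AT3G16670, AT4G22212 and AT1G06830 were low too, at 4.95, 3.93 and 5.82 FPKM.

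Salicylate and pathogen defence genes were higher at 3 of 15 and lower at 3, close to the 20.6% and 20.4% of all genes kept, so the counts set this list apart from the rest in neither direction. EARLI1 (AT4G12480) and AZI1 (AT4G12470), related lipid transfer proteins of defence priming, stood at 14.0 against 254 FPKM and at 12.8 against 151 FPKM. DLO1 (AT4G10500), a salicylate hydroxylase, was lower, at 11.6 against 0.685 FPKM. Of 8 glucosinolate genes 3 were higher and 1 lower. MAM3 (AT5G23020), which lengthens the side chain of methionine-derived glucosinolates, stood at 5.52 against 57.2 FPKM, and CYP79F2 (AT1G16400) at 4.79 against 22.6 FPKM.

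Root tissue genes other than root hair genes were higher in the duodecuple at 11 of 13 kept genes, lower at 1, with a median of 1.95 against 0.27 in control seedlings. Of these 13 genes 6 reached 5 FPKM in both genotypes, and all 6 were at least 2-fold higher. THAS1 (AT5G48010) and THAH (AT5G48000), which make the root triterpene thalianol and its product, stood at 11.2 against 93.9 FPKM and at 13.1 against 126 FPKM. CASP2 (AT3G11550), which builds the Casparian strip, stood at 2.01 against 18.4 FPKM. The exception was MRN1 (AT5G42600), marneral synthase, at 21.8 against 0.295 FPKM. MRN1 was lower in the duodecuple without ABA too, at 18.4 against 0.351 FPKM in control seedlings and 6.03 against 0.329 FPKM under mannitol. Of 25 listed root genes 19 had values, and their summed level was 197 FPKM in ABA-treated wild type and 700 FPKM in the duodecuple. In control seedlings it was 802 against 767 FPKM, and none of the 19 was at 0 in any group. In bulk seedlings fewer cells of a type and less RNA per cell cannot be told apart. The other tissue lists moved less: the 18 root hair genes summed to 66.1 against 119 FPKM, the 12 guard cell and shoot epidermis markers to 91.6 against 97.1 FPKM and the 29 photosynthesis genes to 31329 against 42427 FPKM. None of these markers was at 0 in any group, and their part in the other differences was not tested.

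Of 15 kept mitotic and histone genes 11 were at least 2-fold higher and none lower, with a median of 1.23; a pseudocount of 5 FPKM lowers it to 0.71. Only 5 of the 15 reached 5 FPKM in both genotypes, and 3 of these were at least 2-fold higher. The mitotic cyclin CYCB1;2 (AT5G06150) stood at 3.06 against 11.9 FPKM, KNOLLE (AT1G08560), a syntaxin of cytokinesis, at 10.02 against 30.5 FPKM, and CDC20.1 (AT4G33270) at 5.62 against 18.3 FPKM. The list summed to 95.5 FPKM in ABA-treated wild type and 227 FPKM in the ABA-treated duodecuple, and to 230 and 281 FPKM in the control seedlings. The mutant on ABA was near the wild-type control level, and the wild type on ABA well under it.

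Among cytokinin genes, 6 of 14 were higher and 1 lower, and among the 9 with 5 FPKM in both genotypes 2 were higher and 1 lower. Over all genes kept 20.6% were higher and 20.4% lower. Of the 3201 genes with 5 FPKM in both genotypes 365 were higher and 574 lower. The cell wall counts are to be set beside the same numbers. ARR5 and ARR3 passed the minimum through the duodecuple alone. The response regulators ARR7 (AT1G19050), ARR5 (AT3G48100) and ARR3 (AT1G59940), early targets that dampen the response, stood at 5.11 against 30.8 FPKM, 3.52 against 15.4 FPKM and 1.33 against 10.4 FPKM. AHP4 (AT3G16360), a phosphotransfer protein, was the lower one, at 62.6 against 11.6 FPKM. Of 20 cell wall genes 9 were higher and 3 lower, and of the 13 with 5 FPKM in both genotypes 4 were higher and 1 lower. EXPA1 (AT1G69530), an expansin that loosens walls, stood at 6.55 against 88.3 FPKM, and XTH20 (AT5G48070), which cuts and rejoins xyloglucan, at 0.299 against 13.4 FPKM. XTH25 (AT5G57550), from the same family as XTH20, stood at 56.1 against 1.00 FPKM, so members of 1 enzyme family lay at both ends.

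Several lists had members at both ends or stayed near the middle. Over all genes kept 20.4% were lower and 20.6% higher, and the aquaporin and flavonoid counts were near these shares. Of 16 kept aquaporins 4 were lower and 4 higher, from TIP2;3 (AT5G47450), at 11.3 against 3.48 FPKM, to NIP1;1 (AT4G19030), at 1.55 against 49.96 FPKM. In control seedlings TIP2;3 was further apart, at 27.7 against 0.745 FPKM, and NIP1;1 less far apart, at 21.1 against 62.6 FPKM. Of 29 photosynthesis genes 4 were higher, none lower and 25 within 2-fold, with a median of 0.12; the higher ones included RBCS3B (AT5G38410), a Rubisco small subunit, at 2030 against 5871 FPKM. Of 7 clock genes 3 were lower, among them CCA1 (AT2G46830), a morning regulator, at 20.195 against 2.68 FPKM. Of the 5 clock genes with 5 FPKM in both genotypes 1 was lower, and the list median was -0.91 against -0.67 in control seedlings. Of 13 flavonoid genes 3 were lower and 3 higher: the anthocyanin enzyme DFR (AT5G42800) stood at 238 against 82.3 FPKM and the flavonol synthase FLS1 (AT5G08640) at 76.0 against 209.9 FPKM. The reference genes ACT2 (AT3G18780), ACT11 (AT3G12110) and TUA2 (AT1G50010) were within 2-fold, with log2 ratios of 0.11, -0.23 and 0.68.

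The auxin, ethylene and gibberellin and brassinosteroid lists were short, with genes in both directions. Over all genes kept 20.4% were lower and 20.6% higher, and lists this short were not set apart by their counts. Of 13 auxin genes 4 were higher and 3 lower, with the influx carrier LAX3 (AT1G77690) at 4.73 against 22.5 FPKM and GH3.5 (AT4G27260), which conjugates auxin, at 20.06 against 4.27 FPKM. Of 6 ethylene genes 2 were higher and 1 lower, and ACO1 (AT2G19590), an enzyme of the last step of ethylene synthesis, stood at 2.17 against 14.9 FPKM. Of 7 gibberellin and brassinosteroid genes 3 were higher and 2 lower. GASA6 (AT1G74670) stood at 56.2 against 414 FPKM and GASA1 (AT1G75750), from the same gibberellin-regulated family, at 3268 against 490.39 FPKM, so this family too lay at both ends.

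The transport, redox, nitrate and iron lists held few genes past 2-fold or had counts near the shares over all genes kept, 20.4% lower and 20.6% higher, and are given for their members. Of 17 sugar and amino acid transporters 4 were lower, among them SWEET4 (AT3G28007) at 35.9 against 2.29 FPKM and AAP1 (AT1G58360) at 192 against 36.4 FPKM, and 2 were higher, among them AAP6 (AT5G49630) at 1.16 against 7.84 FPKM. Of 17 oxidative stress and detoxification genes 4 were lower and 3 higher. DHAR1 (AT1G19570), which recycles ascorbate, stood at 1248 against 478 FPKM, and the glutathione transferase GSTF2 (AT4G02520) at 86.1 against 395 FPKM. Of 8 nitrate genes 2 were lower and 2 higher, with the nitrate transporter NRT1.8 (AT4G21680) at 57.2 against 13.6 FPKM and the nitrate reductase NIA1 (AT1G77760) at 73.5 against 176 FPKM. Of 5 kept iron genes 1 was lower, FER1 (AT5G01600), which stores iron, at 316 against 130.28 FPKM, and 2 were higher. The 6 listed seed storage and oil body genes were all below 5 FPKM in both genotypes.

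For nutrients, phosphate starvation genes were higher at 7 of 13 and lower at 3, and sulfur genes higher at 6 of 9 and lower at 1, with medians of 1.12 and 1.25. With 5 FPKM in both genotypes, 3 of 8 phosphate genes were higher and 2 lower, and 3 of 6 sulfur genes higher and 1 lower. Both medians were larger in control seedlings, 2.29 and 2.56. IPS1 (AT3G09922), a phosphate starvation RNA, stood at 0.0686 against 19.4 FPKM, and the phosphate sensor gene SPX1 (AT5G20150) at 9.91 against 132 FPKM. LSU1 (AT3G49580), a marker of low sulfur, stood at 8.71 against 36.0 FPKM under ABA and at 14.5 against 161 FPKM in control seedlings. Under mannitol the sulfur median was 2.71 and the phosphate median 0.53, under 2-fold. The phosphate genes MGD3 (AT2G11810) and SPX1 had log2 ratios of 3.90 and 3.61 under ABA, 4.13 and 3.78 in control seedlings, and 0.43 and 1.48 under mannitol.

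Only 12 genes were at least 4-fold lower and 9 at least 4-fold higher in all 3 treatments. AT2G25450, a 2-oxoglutarate-dependent oxygenase, stood at 341 against 6.29 FPKM in control seedlings, 1269 against 41.3 FPKM under ABA and 662 against 11.3 FPKM under mannitol. AT2G25510 stood at 485 FPKM in control wild type and was listed at 0 in the control duodecuple, and stood at 276 against 9.43 FPKM under ABA. On the higher side, AT5G20790 stood at 5.58 against 142 FPKM in control seedlings and 8.53 against 128 FPKM under ABA. By contrast, 166 of the 309 genes at least 4-fold lower (53.7%) and 134 of the 273 at least 4-fold higher (49.1%) were within 1.5-fold in control seedlings. AT4G12580, an example of the former, stood at 4.498 against 6.82 FPKM in control seedlings and 271 against 8.27 FPKM under ABA. BGAL4 (AT5G56870), a beta-galactosidase, stood at 82.6 against 80.8 FPKM and 6.52 against 113 FPKM. No minimum was set for the control and mannitol values in these counts, and 1 FPKM was added to each level. Genes near 0 in both control groups, such as HAI3 at 0.200 against 0.0378 FPKM, therefore counted as within 1.5-fold. Such genes could not count as 4-fold apart in all 3 treatments. A gap that was present in control seedlings and one seen with ABA and not in control seedlings were both found among the largest differences.

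**Figure D5:**
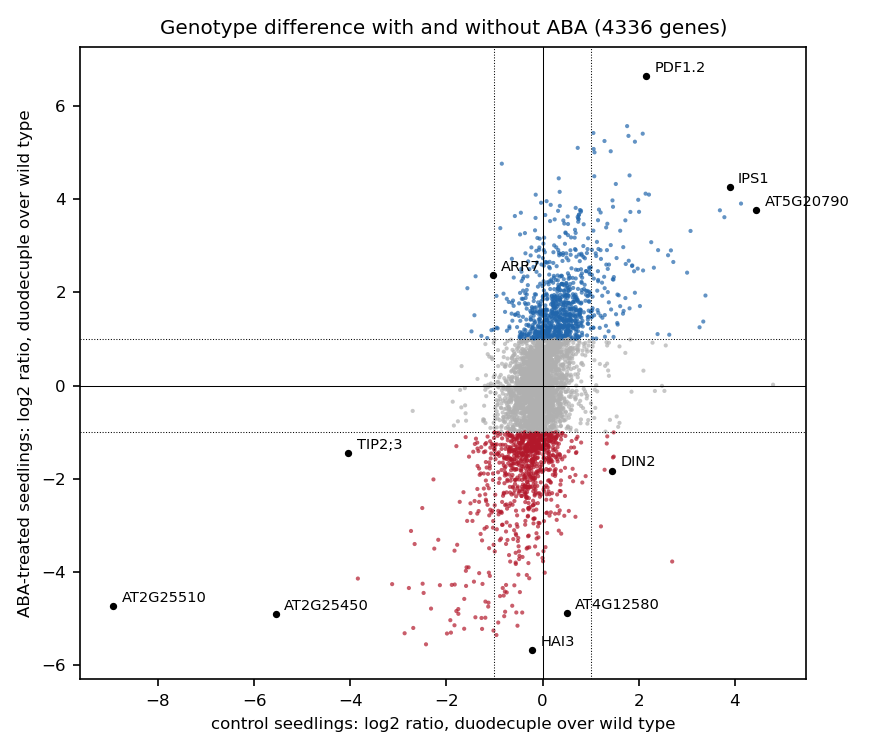
Log2 ratio of the duodecuple over the wild type in control seedlings (horizontal) and in ABA-treated seedlings (vertical) for the 4336 genes, red and blue as in the plot of levels, with dotted lines at 2-fold. HAI3 lies at -0.21 and -5.68, AT2G25450 at -5.55 and -4.91, and AT5G20790 at 4.44 and 3.76.

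Osmotic stress gave a second contrast of the same genotypes. Under mannitol 4396 genes passed the minimum, with 873 (19.9%) at least 2-fold lower in the duodecuple and 677 (15.4%) at least 2-fold higher. Of the genes lower under ABA 531 were also lower under mannitol, 60.0% of the ABA list and 60.8% of the mannitol list. Of those higher under ABA 281 were also higher, 31.4% and 41.5%. Genes that went the opposite way numbered 7 among the lower and 32 among the higher. LEA7 stood at 798 against 1.73 FPKM under mannitol, and its log2 ratio of -8.20 was larger in size than the -5.55 under ABA. SAG13 went from -5.22 under ABA to -0.80 under mannitol, and PR2 (AT3G57260), a pathogenesis-related glucanase, from -2.08 to 2.79, with 25.8 against 184 FPKM. AT5G46890, a lipid transfer family member, stood at 4.17 against 79.2 FPKM under ABA and at 0.862 against 0.845 FPKM under mannitol. The root hair list had a median of 0.65 under ABA and -2.20 under mannitol, and the root tissue list 1.95 and -0.18.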

How the data were processed

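Libraries came from 18 seedling samples grouped by their labels. Per the submitters' processing notes, the authors ran TopHat, Cufflinks and Cuffdiff on TAIR10, with versions and settings not given in the sources used here. The deposited values are 1 per group, read as FPKM from the tools named, since no header states the unit. Yes or no calls were also deposited by the authors for 4 comparisons of a treatment with its control. The calls' rule is not stated, and each of the 6740 genes has at least 1, so shares are of a table of called genes, not of all genes.

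From these values a log2 ratio of (FPKM + 1) was computed where the higher genotype had at least 5 FPKM, and genes past 2-fold or 4-fold were counted. Models across replicates were planned and could not be fitted to group values. The counting was tested on simulated data. The members and the 34 gene lists were chosen with earlier results of these data known; of 768 list genes 744 matched the symbol in the RefSeq gene table, 24 did not and were left out, and a gene misplaced in the jasmonate list was removed after the files were opened. List counts and named genes cover members with values only, and some genes are in more than 1 list. Named genes, 168 in all, were the 10 lowest and 10 highest ratios and up to 4 genes of each list by size of ratio. Every listed receptor, clade A phosphatase, SnRK2 kinase and reference gene was named, as were 3 genes on each side of the minimum. Up to 5 per direction came from genes apart under ABA and within 1.5-fold in control seedlings, whatever their mannitol values. Up to 5 per direction also came from genes apart in all 3 treatments, and from genes apart in opposite directions under ABA and in control seedlings.

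Of the table's genes 6726 matched RefSeq's annotation of TAIR10.1. A planned promoter table was not used here; windows of 250 bases before the gene start were read from the RefSeq genome, and 6 motifs were searched on both strands. Alternatives were pseudocounts of 0.1 and 5 FPKM, no minimum or 20 FPKM, a 4-fold limit, and ratios centred on the median of all genes or of genes called under mannitol only. Copies close in sequence (defensins, Rubisco small subunits, lipid transfer proteins) are uncertain, since how shared reads were assigned is not stated. The tools were pandas 2.3.3 and numpy 2.4.6 for the values, scipy 1.17.1, and matplotlib 3.10.9 for plots, under Python 3.11.15.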

Additional observations from a re-analysis of the deposited data

Results flagged for a closer look

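Some genes were at least 2-fold apart one way under ABA and at least 2-fold apart the other way in control seedlings. With no minimum set for the control values, 10 were lower and 9 higher under ABA. The 5 with the largest ratios under ABA are given for each direction. The difference between the treatments was not tested, and the genes were picked for it. Lower under ABA and higher in control were U12 (AT1G61275), a small nuclear RNA with log2 ratios of -3.77 and 2.696, AT4G31354 with -3.02 and 1.21, and AT1G80130, a TPR-like protein, with -1.85 and 1.45. The values of U12 and AT4G31354 rest on groups listed at 0, the ABA-treated duodecuple and the control wild type. DIN2 (AT3G60140), a glycosyl hydrolase, had -1.82 and 1.45, standing at 74.2 against 20.24 FPKM under ABA and 1.21 against 5.03 FPKM in control seedlings. PYD4 (AT3G08860) had -1.81 and 1.29. DFR (AT5G42800), outside the 5 largest, had -1.52 and 1.48.

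Higher under ABA and lower in control were MRO (AT5G42590), a cytochrome P450, with 1.202 and -1.02, MLP328 (AT2G01520) with 1.51 and -1.42, and TPX2 (AT1G65970), a thioredoxin-dependent peroxidase, with 2.09 and -1.56. AT4G15660, a thioredoxin superfamily member, had 2.34 and -1.39. ARR7 (AT1G19050) had 2.38 and -1.04, standing at 50.5 against 24.1 FPKM in control seedlings.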

How the results depend on the processing

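The count of 885 lower genes stayed within 1.5 times with pseudocounts of 0.1 and 5 FPKM, with no minimum or a minimum of 20 FPKM, and with ratios centred on either median. It was 309 at 4-fold and 574 with 5 FPKM required in both genotypes, an alternative chosen after seeing the data. The count of 895 higher genes was less stable, at 542 with a pseudocount of 5 FPKM, 370 with a minimum of 20 FPKM, 273 at 4-fold and 365 with 5 FPKM in both. The 203 genes past 2-fold the same way in control seedlings became 111 with a pseudocount of 5 FPKM, 93 with a minimum of 20 FPKM and 36 at 4-fold, and the 812 shared with mannitol became 461 with that minimum and 229 at 4-fold. The share of 4-fold lower genes with ACGTG, 49.0%, was 41.0% for genes 2-fold lower and, with choices made after seeing the data, 58.8% in windows of 500 bases and 43.4% with 5 FPKM in both genotypes. A stricter limit or minimum counts fewer genes by construction. Of the list medians under the alternatives 154 stayed on their side of 2-fold, 2 passed it and 4 no longer did; of the values of named genes 647, 6 and 19 did so. The mitotic, phosphate and sulfur medians were 0.71, 0.92 and 0.93 with a pseudocount of 5 FPKM. No sign reversed. No paired analysis was possible because the files hold 1 value per group, and leaving out a replicate was not possible for the same reason. Depth per library is unknown, so ratios of low genes have unknown precision.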

Other observations

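Grouping the kept genes by their deposited description, a step added after seeing the data, gave 34 groups of at least 12 genes, read beside 20.4% lower and 20.6% higher over all genes kept. HSP20-like chaperones, the small heat shock protein family, were lower at 10 of 13 and higher at 0. The protein phosphatase 2C family was lower at 6 of 14 and higher at 0, and MtN21/EamA-like transporters lower at 6 of 15 and higher at 0.

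Higher in the duodecuple were 9 of 13 dirigent-like proteins, which guide lignan and lignin coupling, with 1 lower and a median log2 ratio of 1.62 against 0.51 in control seedlings. Pectin lyase-like proteins, enzymes of the cell wall, were higher at 8 of 13 and lower at 0, and the thioredoxin superfamily higher at 10 of 17 and lower at 3. Peroxidases were higher at 17 of 35 and lower at 10, with a median of 0.95 under ABA and -0.85 under mannitol. The lipid transfer and 2S albumin superfamily was split, with 20 of 46 higher and 9 lower and ratios from -5.31 to 4.44. No set was tested.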
